A study of Canis lupus familiaris with 26 samples.

Results

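The genes described here are PTGS2, PTGES and PTGER2, which encode 2 enzymes and a receptor of the prostaglandin (PG) E2 pathway. They were chosen as the drug target of the study and its PGE2 pathway, and they are 3 of the 19856 genes counted in canine corpus luteum (CL). RNA was sequenced from the CL of 26 bitches, 1 animal per sample, collected on days 5, 10, 20 and 30 after ovulation. On each day, treated dogs had received the cyclooxygenase 2 inhibitor firocoxib (Previcox) orally at 10 mg/kg daily since ovulation, and control dogs had not. Day 5 had 4 control and 4 treated samples, and each later day had 3 and 3. The dogs were mixed-breed bitches of various ages with spontaneous estrus, the controls are described both as given placebo and as untreated, and samples removed by the authors were not analysed here. The reads counted on genes came to 12831896 in the shallowest and 22658950 in the deepest sample (median 17909942). Levels are given as CPM, the gene's reads scaled to the size of the library with edgeR's TMM factors, and each error is the SD between dogs. The treated samples of day 20 had the highest summed level of 5 oocyte markers, at 202 ± 55.1 CPM (148 to 258 CPM). In day 20 controls, where up to 3 of the 5 markers were at 0, it was 6.78 ± 2.29 CPM (SD, n = 3 in both). Other groups also held these markers, with up to 128 CPM in day 30 treated and up to 114 CPM in day 10 control samples.

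PGE2 is made from arachidonic acid, which phospholipases release from membranes. The cyclooxygenases PTGS1 and PTGS2 convert it to PGH2, terminal synthases such as PTGES turn PGH2 into PGE2, and PGE2 acts on the EP receptors, of which EP2 (PTGER2) and EP4 (PTGER4) raise cAMP. PTGS2 is the inducible cyclooxygenase and the target of firocoxib, which blocks the enzyme and not the transcript. In the dog, PGE2 is regarded as a factor that supports the young CL before it depends on gonadotropins. Of the other genes in these families, PTGS1, PTGES2, PTGES3, PTGER1 and PTGER3 were not analysed here.

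PTGS2 (ENSCAFG00000013762) was high in the young CL and low in the mature CL. Among control samples of day 5 its level was 80.0, 236, 339 and 182 CPM, and on day 10 it was 112, 58.6 and 158 CPM. On day 20 the control samples had 3.00, 54.3 and 17.8 CPM, and on day 30 they had 11.1, 14.1 and 9.46 CPM. All 6 control samples of days 20 and 30 lay below all 7 of days 5 and 10, although the highest day 20 sample (54.3 CPM) came close to the lowest day 10 sample (58.6 CPM). The day 30 samples were the most alike, with 11.6 ± 2.38 CPM (SD, n = 3), whereas the day 20 samples spread over 25.0 ± 26.4 CPM (SD, n = 3).

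In treated samples, too, the group mean was lower on each later day. PTGS2 was 12.97, 155, 79.5 and 110 CPM on day 5 and 11.9, 153 and 78.8 CPM on day 10. It was 3.07, 30.6 and 70.6 CPM on day 20 and 12.3, 10.6 and 2.90 CPM on day 30. In each of these groups 1 sample had far less PTGS2 than the others, and on days 5 and 10 these samples (12.97 and 11.9 CPM) were within the range of the day 30 controls. The groups of treated and control dogs overlapped on every day.

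PTGES (ENSCAFG00000030838), the inducible terminal PGE2 synthase, had a narrower range than PTGS2. Control samples held 93.8, 32.1, 99.7 and 73.8 CPM on day 5, then 74.0, 34.9 and 77.1 CPM on day 10. They held 13.6, 25.0 and 20.9 CPM on day 20, then 32.2, 23.5 and 19.7 CPM on day 30. The stages met at a single point, since the lowest early sample (32.1 CPM, day 5) was just under the highest mature sample (32.2 CPM, day 30). In treated samples PTGES was 56.9, 45.3, 45.1 and 85.4 CPM on day 5, and 64.3, 39.7 and 34.4 CPM on day 10. On day 20 it was 55.6, 3.18 and 23.2 CPM, and on day 30 it was 31.4, 13.1 and 13.6 CPM. The day 20 treated group held both the highest value of days 20 and 30 (55.6 CPM, replicate 2) and the lowest of all 26 samples (3.18 CPM, replicate 3).

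PTGER2 (ENSCAFG00000014701), the EP2 receptor, rested on few reads, from 6 to 108 per sample with a median of 16.5. By contrast, PTGS2 had 50 to 7369 reads and PTGES had 66 to 2239. The values from the fewest reads carry the largest counting error. In controls its level was 1.13, 1.83, 1.196 and 2.64 CPM (day 5), 0.93, 2.05 and 0.65 CPM (day 10), 1.08, 0.91 and 0.53 CPM (day 20), and 0.59, 0.38 and 1.49 CPM (day 30). In treated dogs it was 0.86, 5.55, 0.77 and 1.197 CPM (day 5), 0.61, 0.90 and 1.16 CPM (day 10), 0.59, 2.99 and 1.92 CPM (day 20), and 0.41, 0.49 and 0.64 CPM (day 30). The control groups overlapped, except that all day 5 controls lay above all day 20 controls (lowest 1.13 and highest 1.08 CPM), and the highest values were those of treated replicate 2 on day 5 and treated replicate 3 on day 20.

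**Figure D1:**
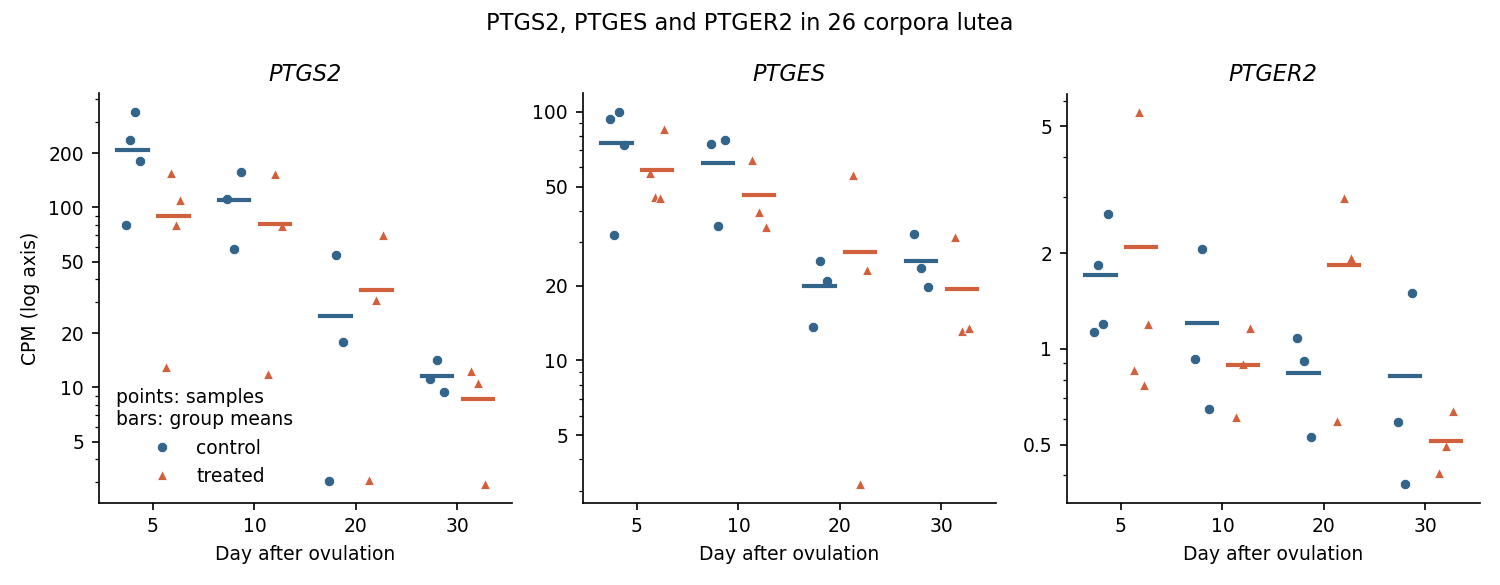
PTGS2, PTGES and PTGER2 in CPM (log axis) by day after ovulation, with a point for each of the 26 samples (circles control, triangles treated) and a bar at each group mean. PTGS2 and PTGES sit lower on days 20 and 30 than on days 5 and 10, while the highest PTGER2 point is treated replicate 2 of day 5 (5.55 CPM).

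Ordered by group mean, PTGS2 went from 209 ± 108 CPM in day 5 controls (SD, n = 4) through day 10 controls (109 ± 49.6 CPM), day 5 treated (89.2 ± 59.4 CPM) and day 10 treated (81.2 ± 70.5 CPM). It continued through day 20 treated (34.8 ± 34.0 CPM) and day 20 control (25.0 ± 26.4 CPM) to day 30 control (11.6 ± 2.38 CPM) and day 30 treated (8.59 ± 5.01 CPM), so that the first mean was 24.3 times the last. PTGES began in the same order, from 74.8 ± 30.6 CPM in day 5 controls to 46.1 ± 15.9 CPM in day 10 treated samples, and then ran from 27.3 ± 26.4 CPM in day 20 treated samples to 19.3 ± 10.4 CPM in day 30 treated samples. For PTGER2, the group with the highest mean was day 5 treated (2.09 ± 2.31 CPM, n = 4), followed by day 20 treated (1.83 ± 1.2 CPM, n = 3), and the lowest was day 30 treated (0.513 ± 0.116 CPM, n = 3). In all 3 genes, every pair of neighbouring groups in these orders had samples that overlapped.

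Time-dependent differences were first tested in control dogs, with the mature CL (days 20 and 30) over the early CL (days 5 and 10). PTGS2 and PTGES fell with time and PTGER2 did not pass the thresholds, which were a P-value of 0.01 and a false discovery rate (FDR) of 0.1. The PTGS2 level was 166 ± 97.4 CPM in the 7 early samples and 18.3 ± 18.3 CPM in the 6 mature samples. PTGES went from 69.3 ± 26.5 CPM to 22.5 ± 6.17 CPM. PTGER2 had 1.49 ± 0.708 CPM early and 0.830 ± 0.417 CPM late. Across all 13503 genes tested in this contrast, 20.5% passed the thresholds, 10.4% as lower and 10.1% as higher, which is the background of the 2 of 3 genes that passed as lower. Mature samples lay below all early ones, as in PTGS2, for 2.47% of all genes, and above them for 3.7%. The identifiers of the 3 genes came from genes that the study had called in these samples. The count of 2 of 3 is therefore not independent evidence of a change.

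The fold change of PTGS2 was 9.14-fold lower in the mature CL (log2 fold change -3.19, standard error 0.59, FDR = 0.00284 by the quasi-likelihood test of edgeR, Benjamini-Hochberg adjusted). That of PTGES was 3.09-fold lower (log2 fold change -1.63, standard error 0.27, FDR = 0.00162 by the same edgeR test). For PTGER2 the log2 fold change was -0.86 with a 95% interval from -1.74 to 0.01 (FDR = 0.14 by the same edgeR test). The median over the 3 genes was that of PTGES, against a median of 0.02 over all genes tested. On mean log2 CPM of single genes, the exact two-sided permutation test gave p = 0.000583 for PTGS2, the smallest that 7 against 6 samples allow, p = 0.00291 for PTGES and p = 0.0612 for PTGER2.

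In a tissue sample made of several cell types, fewer cells of a type and less RNA per cell cannot be told apart. Markers of other cells also differed between these stages in control samples, where 10.4% of all genes fell and 10.1% rose. The markers had an identifier only because the study had called them in these samples, so their counts are not independent evidence of a change. Of 6 fibroblast and mural cell markers with an identifier, 5 fell, and their summed level was 7946 ± 3826 CPM early and 3332 ± 1121 CPM late, with COL1A2 as the most abundant gene. CD68, a macrophage marker and the single leukocyte marker analysed, fell from 6.65 ± 3.43 CPM to 1.86 ± 2.20 CPM. Among 4 endothelial markers, CDH5 and KDR rose and none fell, with sums of 867 ± 299 CPM and 1266 ± 334 CPM. The summed oocyte markers had 52.0 ± 51.2 CPM early and 11.6 ± 7.78 CPM late, and 2 of 5 (ZP3 and GDF9) fell. Of the luteal markers, LHCGR, PRLR and INHA were detected in every sample, and STAR, CYP11A1 and HSD3B2 were not analysed here. INHA fell with time (log2 fold change -1.62, FDR = 0.0275 by the same edgeR test). LHCGR and PRLR were fitted higher late and did not pass, and the median log2 fold change of the 3 luteal markers was 0.36. The part of these markers in the fall of PTGS2 and PTGES was not tested.

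The same contrast in treated samples compares dogs that had received firocoxib throughout. The early and mature levels of PTGS2 were 85.8 ± 58.7 CPM (n = 7) and 21.7 ± 26.02 CPM (n = 6). PTGES was 53.0 ± 17.5 CPM and 23.3 ± 18.5 CPM. PTGER2 was 1.58 ± 1.76 CPM and 1.17 ± 1.05 CPM. In all 3 genes the samples of the stages overlapped, and none of the 3 passed the thresholds, which 4.65% of all genes passed (3.11% as lower, 1.54% as higher). Stages without overlap were rare in treated dogs, at 0.946% of genes on the lower and 0.313% on the higher side. The log2 fold change was -1.97 for PTGS2 (standard error 0.78, FDR = 0.183), -1.17 for PTGES (standard error 0.47, FDR = 0.193) and -0.40 for PTGER2 (standard error 0.65, FDR = 0.734), each by the edgeR test.

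With day 20 left out, an alternative chosen after the data were examined, PTGS2 (log2 fold change -3.30, FDR = 0.0671 by edgeR) and PTGES (log2 fold change -1.43, FDR = 0.0723 by edgeR) passed as lower in the treated samples, whereas PTGER2 did not (log2 fold change -1.59, FDR = 0.234 by edgeR). DESeq2 on all 13 treated samples also called PTGS2 (FDR = 0.0507) but not PTGES (FDR = 0.0877), whose P-value was above 0.01. In the control samples the same omission gave -3.85 for PTGS2 and -1.47 for PTGES, both still past the thresholds. With the replicate number as a block in edgeR, PTGS2 passed in the treated samples (log2 fold change -3.28, FDR = 0.0736). PTGES did not pass there (FDR = 0.2 by edgeR). Each sample was a separate dog, so the replicate block does not pair samples.

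Whether the change with time differed between treated and control dogs was tested as an interaction over all 26 samples. The difference of the log2 fold changes was 1.204 for PTGS2 (95% interval -0.80 to 3.21), 0.44 for PTGES (-0.71 to 1.59) and 0.43 for PTGER2 (-1.16 to 2.01). None passed the thresholds (FDR from 0.889 to 0.986 by edgeR's quasi-likelihood test), and 0% of all genes did, while 7.33% had an unadjusted P under 0.05. The intervals leave room for a difference in either direction. With a sample left out, PTGES turned to -0.029 and PTGER2 to -0.093, while PTGS2 kept its direction.

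The effect of firocoxib was then compared on each day as "treated over control". None of the 3 genes passed the thresholds on any day, which does not show that they were unchanged. In simulated data with planted log2 fold changes of 2 in either direction, the edgeR test recovered 64% of changed genes on day 5 and 73% on day 30. It recovered 37% on day 10 and 0% on day 20. Smaller changes, such as those fitted for the 3 genes, were not simulated. In each gene treated and control samples overlapped on every day. The thresholds were passed by 0% of genes on days 5, 10 and 30 and by 0.102% on day 20 (14 genes). At an unadjusted P under 0.05 there were 11.8% (day 5), 0.902% (day 10), 17% (day 20) and 8.14% (day 30), and none of the 3 genes was among them in this edgeR fit. Groups without overlap on the higher and lower side made up 5.16% and 3.52% of genes at day 5, 2.08% and 2.82% at day 10, 16.1% and 14.2% at day 20, and 5.77% and 9.11% at day 30. With DESeq2 the numbers passing both thresholds were 100 (day 5), 0 (day 10), 1479 (day 20) and 116 genes (day 30), again without these 3 genes.

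On day 5, PTGS2 had the largest difference of the 3 genes between treated and control dogs. Its mean was 89.2 CPM in treated and 209 CPM in control dogs, a log2 fold change of -1.26 (95% interval -2.66 to 0.14, FDR = 0.415 by edgeR's quasi-likelihood test). Of the 4 treated samples, 2 were below the lowest control sample, and 2 lay between it and the next one. The exact permutation test gave p = 0.114, where 4 against 4 samples cannot go below p = 0.0286. With DESeq2 the unadjusted P-value of PTGS2 was 0.0388 (FDR = 0.318), and with the replicate block in edgeR it was 0.000749 (log2 fold change -1.82, FDR = 0.304), so that neither passed the FDR threshold. Only 3 replicate numbers occur in both groups, and they do not pair dogs, so the block's P-value is not evidence from pairs. PTGES differed by -0.38 (95% interval -1.19 to 0.44) and PTGER2 by 0.27 (95% interval -1.26 to 1.81). The PTGER2 value turned to -0.88 without treated replicate 2. In the same contrast the CD68 level of the treated dogs was 16.0 ± 12.1 CPM and that of the controls 7.06 ± 4.54 CPM (n = 4 in both). The higher mean rested on treated replicate 1 (33.9 CPM). The other treated samples, with 7.87 to 12.3 CPM, lay within the control range of 2.72 to 12.8 CPM. The part of CD68 in these values was not tested.

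On day 10 the log2 fold changes were -0.41 for PTGS2, -0.42 for PTGES and -0.44 for PTGER2, with 95% intervals that reached from -2.09 to 1.27, from -1.36 to 0.52 and from -1.95 to 1.06. On day 30 they were -0.31 (-1.48 to 0.85), -0.26 (-1.18 to 0.66) and -0.55 (-2.14 to 1.05), in the same order of genes. On day 10, PTGS2 turned to 0.089 without treated replicate 1 and PTGER2 to 0.19 without control replicate 3. On day 30, PTGS2 turned to 0.10 without treated replicate 5 and to 0.27 with the replicate block. PTGES kept its direction on both days, and on day 30 it ranged from -0.87 to -0.05 with a sample left out. The intervals were narrowest for PTGES and include 0 in each case. With 3 against 3 samples the exact permutation test cannot go below p = 0.1, and it gave p = 0.3 or more for each gene on both days. On day 30 the summed endothelial markers were 681 ± 283 CPM in treated dogs and 1548 ± 157 CPM in controls, without overlap, and the oocyte markers 69.2 ± 61.0 CPM and 16.4 ± 8.72 CPM (n = 3 in both), and their part in these values was not tested.

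On day 20 the fitted differences pointed up in all 3 genes, but those of PTGS2 and PTGES turned to -0.52 without treated replicate 4 and to -0.58 without treated replicate 2. With the replicate block they were -1.64 and -0.75, where only 2 numbers occur in both groups and do not pair dogs. The log2 fold change was 0.54 for PTGS2 (95% interval -2.09 to 3.16), 0.47 for PTGES (-1.40 to 2.35) and 1.18 for PTGER2 (-0.49 to 2.84), with FDR from 0.421 to 0.81 by edgeR's quasi-likelihood test. For PTGES the difference of mean log2 CPM was -0.26, opposite in sign to the fitted value, since the group holds the 3.18 CPM of replicate 3 beside the 55.6 CPM of replicate 2. Over all genes the day 20 median was itself 0.11 on the log2 scale with TMM and 0.06 with RLE factors. Beside the oocyte markers, the summed fibroblast and mural markers came to 9182 ± 1106 CPM in treated dogs, against 3633 ± 1584 CPM in controls (n = 3 in both). The granulosa cell gene FSHR had 475 ± 196 CPM against 2017 ± 351 CPM, and CD68 had 4.53 ± 2.61 CPM against 1.04 ± 0.98 CPM. The luteal markers summed to 336 ± 86.8 CPM against 520 ± 24.5 CPM, without overlap. This was not a fall of every marker, since their median log2 fold change was 0.04 and none passed with edgeR. INHA overlapped, with 30.5 to 205 CPM in treated dogs and 23.4 to 228 CPM in controls. The part of these differences in the values of the 3 genes was not tested. The treatment difference on day 20 was also tested against that on days 5, 10 and 30, and no such interaction passed the thresholds for any of the 3 genes or any other (0% of genes, with 5.05%, 10.7% and 13.6% at an unadjusted P under 0.05). The largest were those of PTGS2 against day 5 (1.74 on the log2 scale, 95% interval -1.14 to 4.61) and of PTGER2 against day 30 (1.72, 95% interval -0.42 to 3.85).

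Averaged over the 4 days, the treatment differences were -0.47 for PTGS2 (95% interval -1.43 to 0.49), -0.19 for PTGES (-0.78 to 0.39) and 0.11 for PTGER2 (-0.64 to 0.87). None passed the thresholds in this fit, nor did any other gene of the 14171 tested (0%), and 20% of them had an unadjusted P under 0.05. Exact permutation of the treatment labels within days gave p = 0.251, p = 0.332 and p = 0.987.

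**Figure D2:**
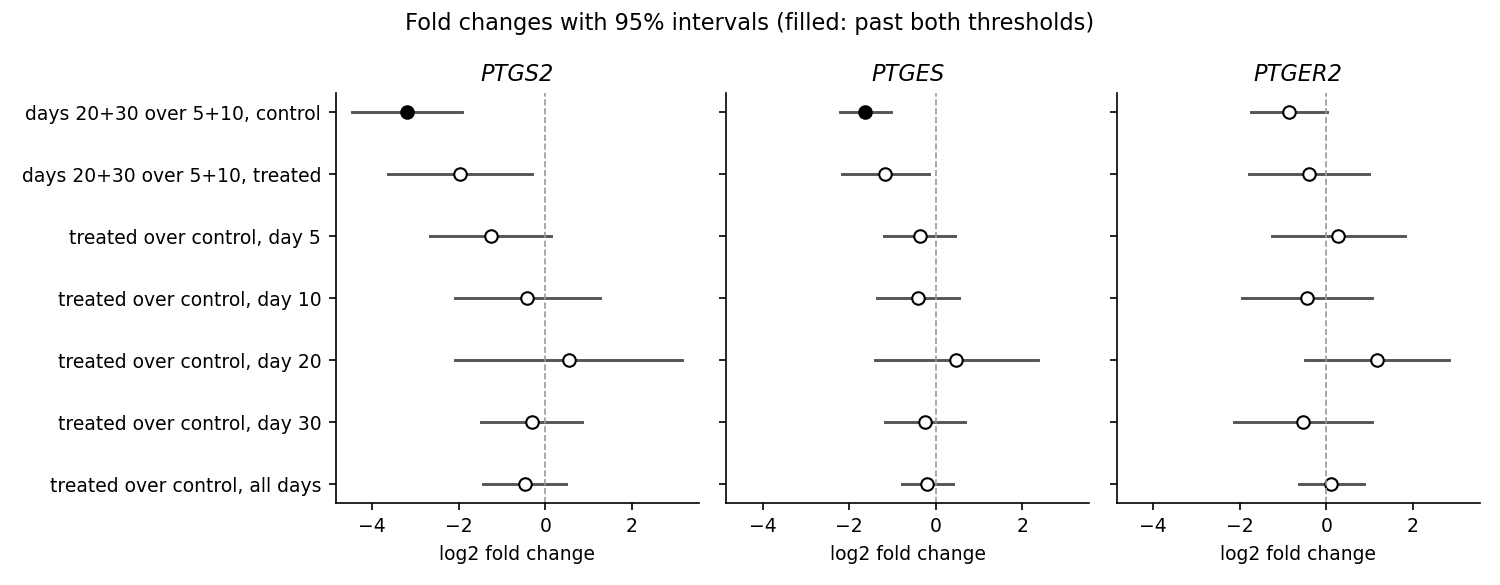
Log2 fold changes (points) with 95% intervals (lines) of PTGS2, PTGES and PTGER2 in the 2 time contrasts and the treatment contrasts, where filled points passed both thresholds. The filled points are PTGS2 (-3.19) and PTGES (-1.63) over time in control samples, and each treatment interval includes 0.

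Of 30 other genes listed for the prostanoid pathways, 11 had an identifier here. Identifiers came from genes that the study had called in these samples, so counts over such lists are not independent evidence of a change. In control samples, 2 of the 11 rose and 5 fell between the early and the mature CL, with a median log2 fold change of -1.37 against 0.02 over all genes, of which 10.1% rose and 10.4% fell.

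The receptor PTGER4 (EP4), which shares the cAMP route with PTGER2, had 10.6 to 13.03 CPM on day 5 and 8.71 to 9.92 CPM on day 10 in control samples. It had 2.94 to 5.53 CPM on day 20 and 3.27 to 3.69 CPM on day 30, below every earlier control sample. It fell by 1.45 on the log2 scale (standard error 0.19, FDR = 0.000378 by the edgeR test over time in controls). HPGD, the enzyme that inactivates prostaglandins, moved the other way. Its control values were 1.72 to 3.62 CPM on day 5, 7.21 to 14.5 CPM on day 10, 15.7 to 62.8 CPM on day 20 and 13.4 to 93.4 CPM on day 30, with 1 mature sample just under the highest early one. The log2 fold change was 2.84 (standard error 0.53, FDR = 0.00284 by the same edgeR test). SLCO2A1, the prostaglandin uptake transporter, had 18.3 CPM early and 23.2 CPM late and did not pass.

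Among genes of other prostanoids, the prostacyclin synthase PTGIS went from 337 to 58.8 CPM (log2 fold change -2.53) and the prostacyclin receptor PTGIR from 1.66 to 0.45 CPM (-1.88). Both fell, as did the thromboxane synthase TBXAS1 (-1.22) and AKR1B1, an aldo-keto reductase that can form PGF2alpha (-1.37). The PGF2alpha receptor PTGFR rose, from 730 to 2104 CPM (log2 fold change 1.52), and its mature samples did not overlap the early ones. PTGDS (-1.64) and HPGDS (0.40), the PGD2 synthases, and the phospholipase PLA2G5 (-1.72) did not pass the thresholds. With DESeq2, PTGDS (FDR = 0.015) and PLA2G5 (FDR = 0.0285) did, and PLA2G5 also passed with all 26 samples in 1 fit (FDR = 0.0723 by edgeR). The HPGDS value turned to -1.85 without day 20 and to -0.016 with all 26 samples in 1 fit. With a sample left out it reached -0.19. The call of AKR1B1 was lost with all 26 samples in 1 fit (FDR = 0.103 by edgeR), and that of PTGIR with the replicate block, where its P-value was above 0.01 (FDR = 0.081 by edgeR). In treated samples, where 4.65% of all genes passed (1.54% as higher, 3.11% as lower), 3 of the 11 genes did, namely HPGD (log2 fold change 3.34, FDR = 0.0753), PTGIS (-2.50, FDR = 0.0174) and AKR1B1 (-2.11, FDR = 0.0905) by edgeR's quasi-likelihood test. The calls of HPGD and AKR1B1 were lost under 9 and 13 of 18 alternatives, while that of PTGIS was kept under all 18. PTGER4 had 10.6 CPM early and 12.7 CPM late in treated samples (log2 fold change 0.28, FDR = 0.789), and without day 20 this value was -0.80. The difference between its time courses in treated and control samples (1.71 on the log2 scale) did not pass the thresholds (FDR = 0.477 by edgeR).

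**Figure D3:**
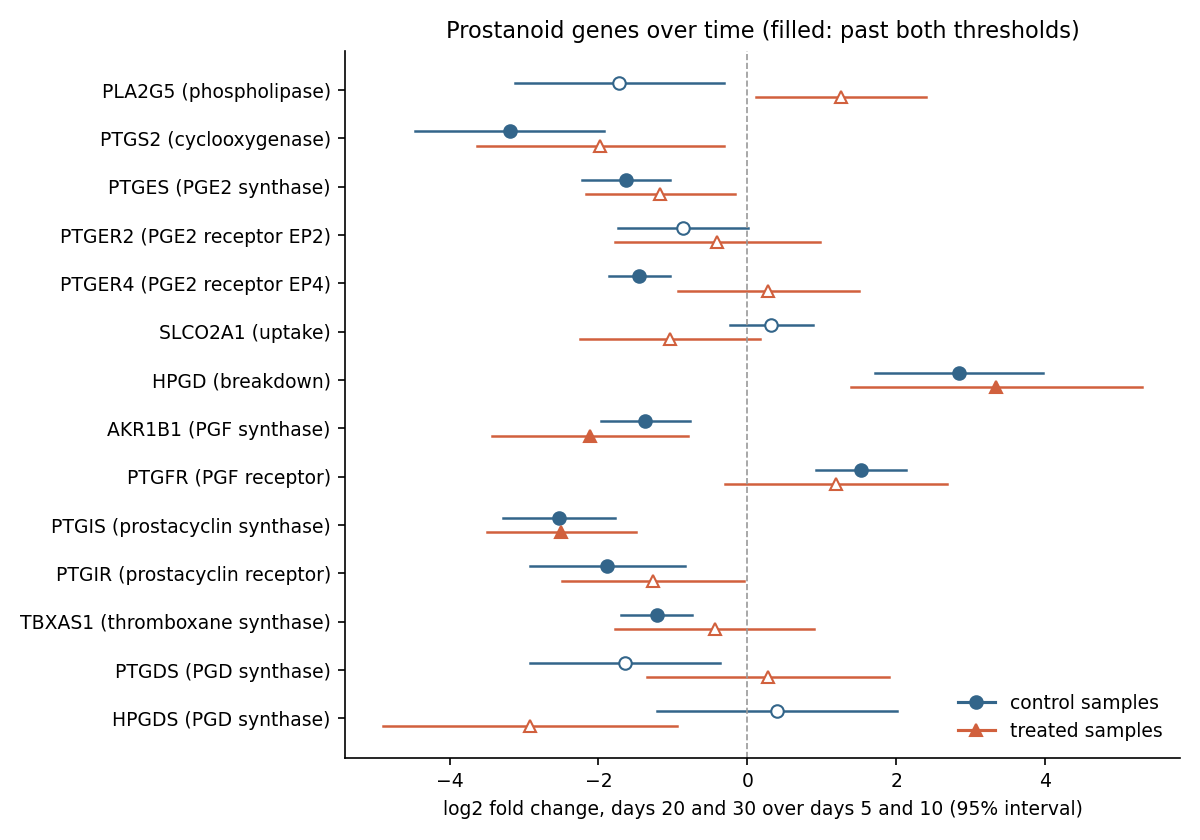
Log2 fold changes of days 20 and 30 over days 5 and 10 with 95% intervals for the 3 genes and the 11 other prostanoid genes, in control (circles) and treated samples (triangles), where filled points passed both thresholds. In control samples HPGD (2.84) and PTGFR (1.52) lie to the right of 0 and 7 filled points lie to the left.

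**Figure D4:**
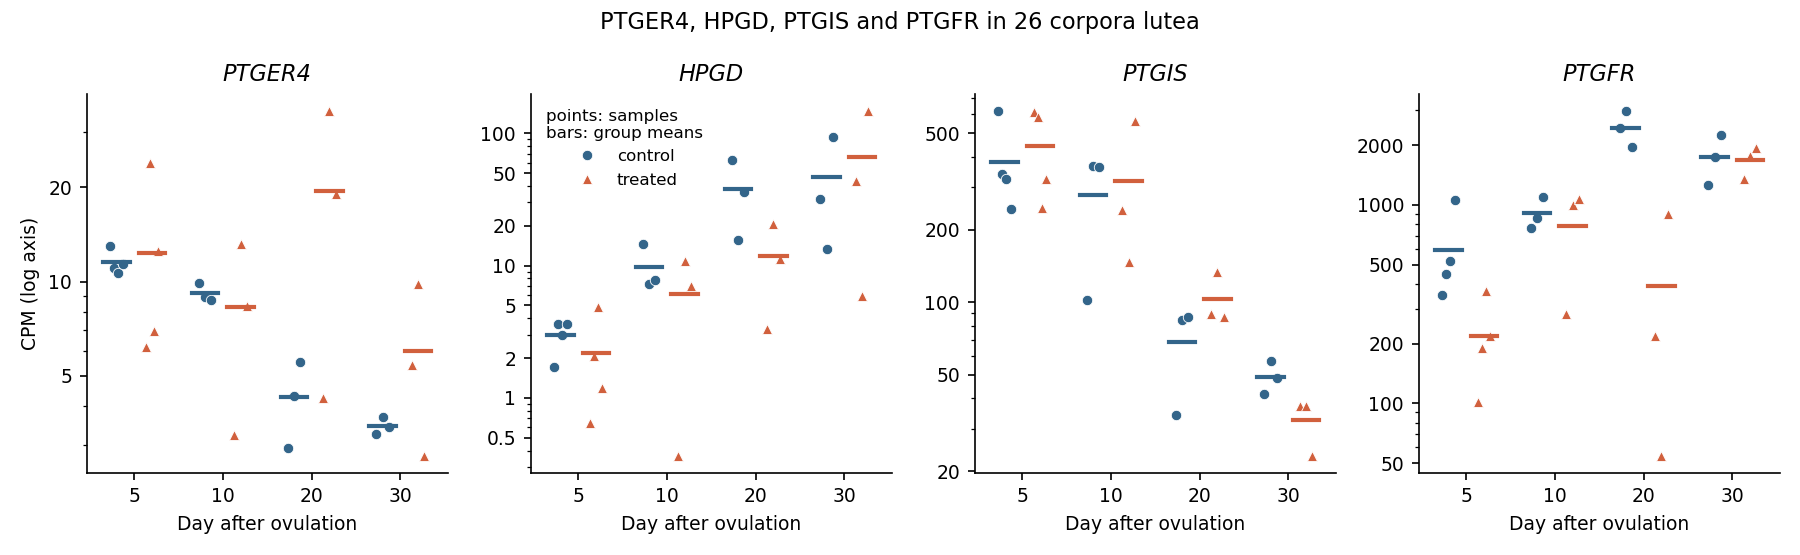
PTGER4, HPGD, PTGIS and PTGFR in CPM (log axis) by day, with a point per sample and a bar at each group mean. The treated samples of day 20 reach higher than the controls in PTGER4 (up to 35.1 CPM) and lie below them in PTGFR.

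None of the 11 genes passed in a treatment contrast when edgeR was fitted on the samples of that day. On day 20, PTGER4 was 4.25, 35.1 and 19.1 CPM in treated samples and 2.94, 4.33 and 5.53 CPM in controls, a log2 fold change of 2.24 (FDR = 0.202). PTGFR was 218, 54.5 and 896 CPM in treated samples and 2432, 2985 and 1952 CPM in controls (log2 fold change -2.61, FDR = 0.229), without overlap. PTGDS, TBXAS1 and PLA2G5 were also separate on the higher side, with log2 fold changes of 3.16, 2.10 and 3.19, and HPGDS was separate on the lower side with 0.0651 CPM against 2.85 CPM in controls (FDR = 0.102). As given above, such separation was frequent on day 20. PTGER4, PTGFR, PTGDS, TBXAS1, PLA2G5 and HPGDS passed both thresholds on day 20 with DESeq2 and also with edgeR when all 26 samples were in 1 fit, and HPGDS passed with RLE factors and without the filter as well. With DESeq2 1479 genes in all passed on day 20, and with all 26 samples in 1 edgeR fit 1559 did.

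The log2 ratio of PTGER2 to PTGER4 reads within a sample does not depend on the scaling. In control samples it was -2.92 ± 0.66 (SD, n = 7) on days 5 and 10 and -2.29 ± 0.88 (SD, n = 6) on days 20 and 30. The difference of 0.63 was within the spread of the samples (exact permutation p = 0.174, adjusted p = 0.174 over 2 tests), and so was the treatment difference within days of -0.48 (exact permutation p = 0.152, adjusted p = 0.174).

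Further down the pathway, 8 of 24 listed genes of cAMP signalling had an identifier. In control samples PRKAR2A, a regulatory subunit of protein kinase A (log2 fold change 0.75), and the cAMP-responsive transcription factor CREM (0.999) rose with time, while the adenylyl cyclases ADCY2 (-1.17) and ADCY5 (-1.14) fell, where 10.1% of all genes rose and 10.4% fell. The other 4, ADCY8 (-2.64), PRKAR1B (-0.78), PDE4A (-0.63) and PDE4D (0.35), did not pass. In the treatment contrasts none passed with edgeR fitted on each day's samples. Of 11 listed regulators of PTGS2 and PTGES transcription, 5 had an identifier (NFKB1, NFKBIA, EGR1, IL1B and NR4A1), and none passed in any contrast with edgeR fitted on the samples of that contrast, the single tool and fit run for these lists. On day 20 all 5 were fitted higher in treated dogs, with a median log2 fold change of 3.11 against 0.11 over all genes. These genes had an identifier only because the study had called them in these samples. Their median is therefore not independent evidence of a change. NR4A1 had 201 CPM against 11.3 CPM in controls (log2 fold change 4.19, FDR = 0.102), EGR1 had 2193 and 264 CPM (3.11, FDR = 0.178) and NFKBIA had 174 and 44.4 CPM (2.02, FDR = 0.129), while PTGS2 in the same samples had 34.8 and 25.0 CPM. Of 6 luteal genes tied to PGE2 in dogs, PRLR, LHCGR and EDNRB had an identifier. None passed over time in controls, where 20.5% of all genes did. LHCGR rose in treated samples (log2 fold change 1.72, FDR = 0.0636 by edgeR), where 1.54% of all genes rose.

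No relation among the 3 genes from dog to dog passed an adjusted p of 0.05. Correlations of log2 CPM were computed within the early (n = 14) and the mature samples (n = 12), for 6 relations in all. For PTGS2 and PTGES, Pearson's r was 0.07 early (permutation p = 0.797) and -0.16 late (permutation p = 0.622). Spearman's rho of the same genes was 0.23 (permutation p = 0.429) and 0.12 (permutation p = 0.717). For PTGS2 and PTGER2, r was 0.40 in both stages (permutation p = 0.154 and p = 0.199). In controls alone this r was -0.02 early and -0.25 late, and in treated dogs it was 0.54 and 0.71. The strongest relation was that of PTGES and PTGER2 in mature samples, with r = -0.60 (permutation p = 0.037, adjusted p = 0.222) and Spearman's rho = -0.38 (permutation p = 0.227, adjusted p = 0.681). Without the 2 samples farthest from the median of PTGES, among them day 20 treated replicate 3, r was -0.13. In the 6 mature controls alone r was -0.47, and in the 6 mature treated samples it was -0.64. With each group's mean removed, r of PTGES and PTGER2 was -0.72 in mature samples, -0.47 in early samples and -0.58 over all 26, as a description.

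**Figure D5:**
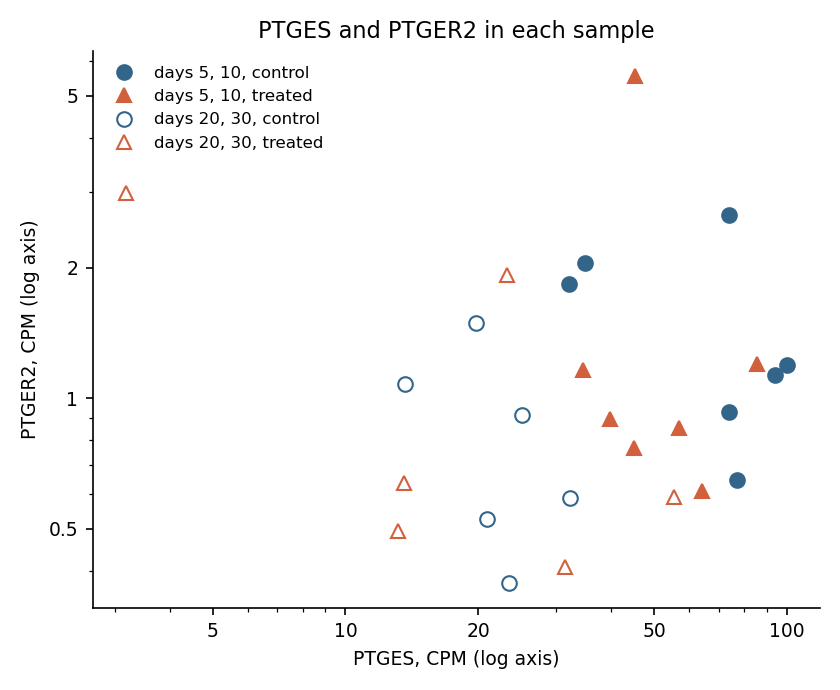
PTGER2 against PTGES in CPM (both log axes) for the 26 samples, filled for days 5 and 10 and open for days 20 and 30, circles for control and triangles for treated dogs. Apart from the open triangle at 3.18 CPM of PTGES and 2.99 CPM of PTGER2, the open symbols form no clear line.

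Of 4335 genes with a symbol, those most like each of the 3 genes over the 26 samples were taken by Pearson's r of log2 CPM. These are descriptions, and the samples share the fall with time. For PTGS2 they were C6 (complement component, r = 0.87), IGF2BP3 (an RNA-binding protein, 0.87), FAM46A (0.85), VCAN (the proteoglycan versican, 0.84) and PRR16 (0.84). With each group's mean removed, r for C6 was 0.795 and for VCAN 0.65. For PTGES they were CREB3L3 (a transcription factor, 0.91), ATOX1 (a copper chaperone, 0.91), CCND3 (cyclin D3, 0.91), ENPP7 (0.90) and GRAMD1B (0.88), and r for ATOX1 was 0.87 with the means removed. For PTGER2 they were SPP1 (osteopontin, 0.82), FGF10 (0.78), CTSS (cathepsin S, 0.78), MBOAT1 (0.78) and BTK (Bruton's tyrosine kinase, 0.78), and r for BTK was 0.87 with the means removed.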

How the data were processed

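The authors deposited unnormalized read counts per Ensembl gene, 1 file per animal. Per the labels and the study's methods, poly-A selected RNA was sequenced single-end, with all libraries processed together, mapped to CanFam3.1 by STAR and assigned to genes by featureCounts, whose versions are not given in the sources used here. Groups came from the labels. Each sample was a separate dog, so P-values measure the spread between dogs.

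R 4.3.3 with edgeR 4.0.16 and DESeq2 1.42.0 was used, and Python 3.11.15 with scipy 1.17.1. A gene was kept if its mean reached 10 reads in 1 or more groups compared, libraries were scaled with TMM factors, and log2 CPM used a prior count of 2. The study used DESeq2. Here edgeR's quasi-likelihood test was fitted on the samples of each contrast, with Benjamini-Hochberg adjustment over all genes tested, and a gene passed with P under 0.01 and FDR under 0.1. Interactions and the average over days used all samples, or those of the days compared. Single values were tested with exact two-sided permutation, and correlations with 100000 resamples. For the receptor ratio 0.5 read was added to both counts. The tests were checked on simulated data with planted log2 fold changes of 2 in either direction. There edgeR missed most changed genes on day 10 and all of them on day 20, and recovered 64% on day 5 and 73% on day 30. DESeq2 recovered more genes and made more false calls in each contrast. On day 20 the simulation gave edgeR 0 recovered genes and 0 false calls, whereas 14 genes passed in the data.

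The alternatives were DESeq2, RLE factors, no filter, all 26 samples in 1 fit, the animal number as a block, each sample left out, and, added after the data were examined, day 20 left out. The 3 genes, the gene lists and the tests were chosen with earlier results of these data known. The 3 genes and every gene of the lists could be named, with the 5 genes most like each of the 3. Identifiers came from the identifier and symbol columns of the study's lists of called genes (4339 symbols). Their fold changes and P-values were not used. The 26 samples gave 30 pairs within groups, and none agreed within sampling noise, so each counted as 1 replicate.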

Additional observations from a re-analysis of the deposited data

Results flagged for a closer look

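In 24 sets of samples, namely groups of 4 and the early and mature samples of each treatment, the highest and lowest values of the 3 genes and of the receptor ratio were set against the rest. This raised 3 flags, with 1 sample flagged in nested sets. Chance gives about 1 flag in 20 sets for normally distributed values in separate sets. The CPM values were not log-transformed and some sets share samples, so that rate need not hold here. Day 5 treated replicate 2 had 5.55 CPM of PTGER2, against 1.197 CPM in the next sample, and stood apart both among the 4 day 5 treated and among the 7 early treated samples. Day 20 control replicate 2 had 54.3 CPM of PTGS2, against 17.8 CPM in the next of the 6 mature control samples.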

How the results depend on the processing

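The fall of PTGS2 and PTGES over time in controls passed the thresholds under every alternative run, with log2 fold changes from -3.92 to -2.92 and from -1.76 to -1.52 when each sample was left out. Of 114 log2 fold changes of the 3 genes under settings other than leaving out a sample, 106 kept their direction and side of the thresholds, and of 311 with a sample left out 299 did. The causes of the changes below were not tested. Over time in controls 2774 genes passed, 1754 with all 26 samples in 1 fit and 1721 without day 20, and between 2166 and 4133 with each sample left out. The treatment contrasts with DESeq2 gave 100 (day 5), 1479 (day 20) and 116 genes (day 30). For the day 20 treatment there were also 95 with RLE factors, 109 without the filter and 1559 with all 26 samples in 1 fit, against 14, and from 0 to 1016 with a sample left out, the highest without treated replicate 2. On day 5 leaving out a sample gave 0 to 1.

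In treated samples PTGS2 passed over time with DESeq2 (-1.99) and without day 20 (-3.30), and PTGES passed without day 20 (-1.43) and without day 20 treated replicate 2, where its range with a sample left out was -1.63 to -0.94. Without day 20, HPGDS over time in controls was -1.85, and in treated samples PTGER4 was -0.80 and PTGDS -1.72. With all 26 samples in 1 fit HPGDS in controls was -0.016.

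Some directions turned when a sample was left out. For treatment, PTGER2 ranged from -0.88 to 0.57 on day 5 (turning without treated replicate 2) and from -0.76 to 0.19 on day 10 (control replicate 3). PTGS2 ranged from -1.27 to 0.089 on day 10 (treated replicate 1), from -0.52 to 1.78 on day 20 (treated replicate 4) and from -0.74 to 0.10 on day 30 (treated replicate 5). On day 20 PTGES ranged from -0.58 to 0.998 and SLCO2A1 from -0.61 to 0.97 (both treated replicate 2), and AKR1B1 from -0.71 to 0.23 (treated replicate 3). Averaged over days, PTGER2 ranged from -0.22 to 0.31 (day 5 treated replicate 2 or day 20 treated replicate 3). Over time in treated dogs, PTGER2 ranged from -0.94 to 0.38 (day 5 treated replicate 2), PTGER4 from -0.35 to 0.62 (day 20 treated replicate 3) and PTGDS from -0.33 to 0.69 (day 20 treated replicate 2). HPGDS in controls ranged from -0.19 to 1.06 (day 20 replicate 2). For the difference of the time courses, PTGES ranged from -0.029 to 0.69 (day 20 treated replicate 2) and PTGER2 from -0.093 to 1.27 (day 20 treated replicate 3).

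The animal numbers did not pair the samples, since on day 5 the deviations of same-numbered samples correlated between -0.092 and 0.506. With the number as a replicate block, 1806 genes passed over time in controls and 4 on day 5, PTGS2 passed over time in treated samples (-3.28), and the day 10 contrast could not be fitted. The block turned PTGER2 on day 5 (-0.73), PTGS2 (-1.64), PTGES (-0.75) and SLCO2A1 (-0.66) on day 20, PTGS2 on day 30 (0.27), and PTGER4 (-1.01) and PTGDS (-0.39) over time in treated samples. The ratios of PTGS2 to PTGS1 and of PTGES to PTGES2, promoter motifs and protein alignments were planned and not run. PTGER2 rested on few reads, which limits every value of it.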
